A study of Mus musculus with 12 samples.

Results

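The genes described here encode intermediate filament proteins: the neuronal filament genes Nefl, Nefm, Nefh, Prph and Ina, and Vim and Gfap, which are best known from other cells. They were taken by symbol, and all 7 were found, each with 1 Ensembl ID, among the 14675 gene IDs of the count table. RNA came from adult mouse dorsal root ganglion (DRG) material of the genotype RPL22HA+/+;Advillin-Cre+, in which the tagged ribosomal protein RPL22 marks ribosomes of sensory neurons that express the Cre from the Advillin promoter. IP libraries hold RNA pulled down with an antibody against the HA tag, and input libraries hold total RNA, to which all cell types of the sample contribute. The 4 groups, with 3 deposited columns each, were IP after AAV-shGpr151 and AAV-e5'UTR (IP with e5UTR), IP after AAV-shGpr151 alone (IP shGpr151), input with e5UTR and input shGpr151. Every group carried the hairpin against Gpr151, and the series' design text names a preconditioning sciatic nerve injury and neuron culture for the mice, while the protocol in the labels names freshly collected DRGs. A control with a non-targeting hairpin is not part of the comparison, and the labels state neither how many animals were used nor what the e5'UTR insert is.

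Intermediate filaments are rope-like polymers that give cells mechanical strength. In neurons the light, medium and heavy neurofilament proteins (NEFL, NEFM and NEFH) assemble together, with alpha-internexin (INA) or peripherin (PRPH) as further partners, and they fill large axons and set their calibre. Peripherin is typical of peripheral neurons and, in the DRG, of many small ones, whereas NEFH is a common marker of large myelinated sensory neurons. Vimentin (VIM) is the filament protein of fibroblasts, endothelial cells, immune cells and many glia, and GFAP is that of astrocytes and of some peripheral glia.

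The columns held 1514948 to 1517685 estimated counts in IP with e5UTR, 1381220 to 1382261 in IP shGpr151, 975403 to 977366 in input with e5UTR and 984118 to 985277 in input shGpr151. Within a group the columns differed by little more than counting noise: the median gene's chi-square was 1.08 to 1.12 times the value that counting gives. The 3 columns of a group were therefore summed into a pool that counts once. A p-value for IP against input sets the difference between fractions against the spread of the 2 pools within each fraction, which differ in treatment. Gpr151, the hairpin's target, had 34, 44 and 50 counts in IP with e5UTR, 37, 37 and 34 in IP shGpr151, 8, 9 and 12 in input with e5UTR and 7, 16 and 12 in input shGpr151. Avil, which encodes advillin, the actin-binding protein of sensory neurons, had a log2 ratio of IP to input of 1.92 ± 0.17 (SE, adjusted p = 2.6e-07, edgeR's quasi-likelihood test on the 4 pools). The sensory neuron markers had 7 higher and 2 lower in IP of 12 tested, beside 33.5% higher and 36.2% lower of all 8085 genes tested. Scaled by library total in place of TMM (edgeR's trimmed mean of M-values), they had 9 higher and 1 lower, beside 62.4% and 23.4% of all tested genes. The surface glycoprotein gene Thy1 was 5.24-fold and the sodium channel gene Scn10a 4.88-fold higher. Scn9a, another sodium channel gene, stood at −1.38 ± 0.20 and the synaptic gene Snap25 at −1.21 ± 0.13, and both shrank by library total, to −0.44 and −0.27. The filter on low counts admitted 34.7% of the tested genes through the IP columns alone and 8.27% through the input columns alone, and such genes had to be high in that fraction to be tested. Among the named genes these were Ina, Scn10a, Icmt, Macf1, Capn1, Ppp2r2a, Csf1r and Nt5c2 through IP. Through input they were Krt7, Etv1, Prx, Ncmap, Lum, C1qa, H2-Aa and the hemoglobin genes. The direction of the ratios or counts of all these genes is given as a description. Of the 12 tested sensory neuron markers, 3 passed the filter through the IP columns alone. Rpl22 itself, the gene that is tagged, stood at −0.83 ± 0.12. All 4 tested hemoglobin genes were lower, and the summed erythroid markers stood at 3.03 and 2.25 CPM (counts scaled by library size and TMM factor) in the IP pools with e5UTR and with shGpr151 alone, against 2329 and 2370 in the corresponding input pools.

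IP was set against input to see how the filament mRNAs were spread between tagged neuronal ribosomes and total RNA. Prph stood 3.97-fold, Ina 3.05-fold, Vim 2.64-fold and Nefh 1.79-fold higher in IP, while Nefm stood 1.22-fold and Nefl 1.18-fold above input. Of the 7 genes, 5 were called higher and 0 lower by edgeR (adjusted p under 0.05), Nefl was not called, and Gfap was too low to be tested. Over all 8085 genes tested, 69.7% were called, 33.5% higher and 36.2% lower in IP, so a call by itself sets no gene apart. Ina passed the filter on low counts through the IP columns alone, so it could be tested only because it was high there. Vim, taken as a filament gene of other cells, was higher in IP and not lower. In such bulk samples, fewer cells of a type and less RNA per cell cannot be told apart. Scaling by library total moved the median log2 ratio of all tested genes by 0.94, so small ratios have no fixed size. Comparisons between members, which do not depend on scaling, are given after the single genes.

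**Figure D1:**
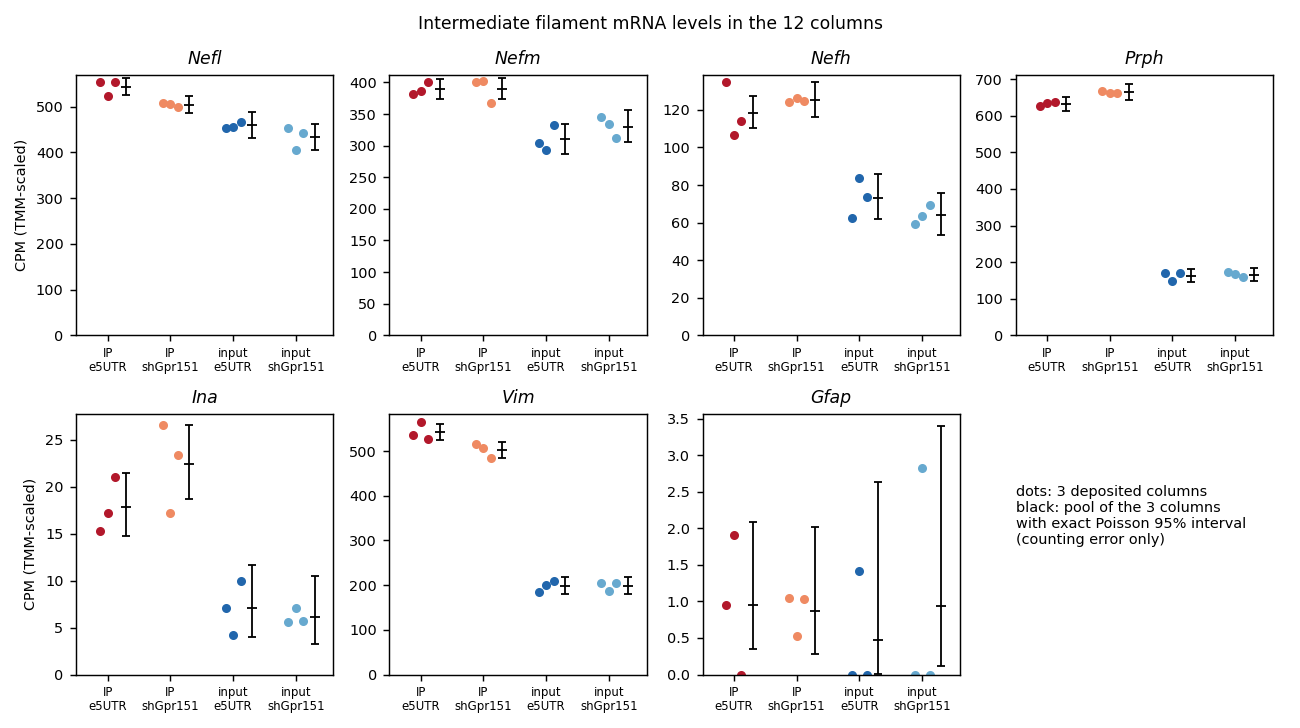
Level of each filament mRNA (vertical axis, CPM, TMM-scaled, starting at 0) in the 3 columns of each group, IP left of input. Dots are columns, and the black mark is the pool with its exact Poisson 95% interval; all IP columns lie above all input columns for each gene but Gfap.

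Nefl encodes the light neurofilament protein, without which the other neurofilament proteins do not build normal filaments. It had 1160, 1097 and 1156 counts in IP with e5UTR, 977, 972 and 960 in IP shGpr151, 321, 322 and 329 in input with e5UTR and 321, 287 and 314 in input shGpr151. In CPM, every IP column lay above every input column, from 499 to 554 CPM in IP and from 405 to 466 in input, as was the case for 23.9% of all tested genes. The log2 ratio of IP to input was 0.24 ± 0.11 (SE, 2 pools against 2, adjusted p = 0.07), which did not pass the threshold. It ran from 0.20 to 1.18 over 24 alternative settings, the highest by library total, and passed in 7 of them. Among the 7 were leaving out the IP pool with e5UTR (0.28, adjusted p = 0.0077) or the IP shGpr151 pool (0.29, adjusted p = 0.006), where the lone IP pool is assumed to vary as the 2 input pools do.

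Nefm encodes the medium neurofilament protein, and in the RefSeq gene order 1 record, Gm19216, lies between it and Nefl. It had 799, 810 and 837 counts in IP with e5UTR, 770, 773 and 708 in IP shGpr151, 215, 207 and 235 in input with e5UTR and 245, 237 and 221 in input shGpr151. The groups did not overlap, with 368 to 402 CPM in IP and 293 to 345 in input. Its log2 ratio of 0.29 ± 0.11 passed the test (adjusted p = 0.034), but 5 of 24 alternative settings ended the call. Among them were DESeq2 (adjusted p = 0.16) and leaving out the input pool with e5UTR (0.37) or the input shGpr151 pool (0.21), where the lone input pool is assumed to vary as the 2 IP pools do. Its locus overlaps the RefSeq record A230070E04Rik, which was not analysed here.

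Nefh encodes the heavy neurofilament protein, whose long phosphorylated tail extends sideways from the filament. Its counts were 282, 223 and 239 in IP with e5UTR, 239, 243 and 240 in IP shGpr151, 44, 59 and 52 in input with e5UTR and 42, 45 and 49 in input shGpr151. IP columns ran from 107 to 135 CPM and input columns from 59.2 to 83.6. The log2 ratio was 0.84 ± 0.14 (adjusted p = 9.7e-05), called in all 24 alternative settings. The gene overlaps Gm35321, which was not analysed here, and Ap1b1, an adaptor subunit of clathrin coats. No source used here says whether the counting used strand, and overlap was judged from gene spans and not from exons. Whether reads of overlapping genes were told apart is therefore not known. Ap1b1 itself had 186 and 217 counts in the IP pools with e5UTR and with shGpr151 alone, and 33 and 40 in the corresponding input pools.

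Markers of the large sensory neurons in which NEFH protein is abundant were mostly lower in IP by TMM scaling. Of 7 tested genes of that list 1 was higher in IP and 5 were lower, with a median log2 ratio of −1.02 against 0.06 over all tested genes. Spp1, which encodes osteopontin, was 1.47-fold higher, whereas Ntrk3, the neurotrophin-3 receptor, stood at log2 −1.79 ± 0.32 and Etv1, a proprioceptor transcription factor tested only through its input counts, at −3.28 ± 0.40. By library total the same list had 3 genes higher and 2 lower of 7, beside 62.4% and 23.4% of all tested genes. With TMM scaling its summed level was 301 CPM in IP with e5UTR and 270 in IP shGpr151, against 331 in input with e5UTR and 320 in input shGpr151. The TMM factors were 1.38 and 1.39 for these IP pools and 0.723 and 0.720 for these input pools. The direction of so small a difference between sums therefore depends on scaling. The part of these cells in the Nefh ratio was not tested.

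Prph, which encodes peripherin, had the largest ratio of the 6 tested members. It had 1311, 1330 and 1331 counts in IP with e5UTR, 1287, 1273 and 1275 in IP shGpr151, 120, 105 and 120 in input with e5UTR and 122, 118 and 113 in input shGpr151. IP columns ran from 627 to 669 CPM and input columns from 149 to 172, with no overlap. The log2 ratio was 1.99 ± 0.12 (adjusted p = 2.8e-09), higher than that of 93.8% of tested genes. It was called in all 24 alternative settings and ran from 1.95 to 2.93.

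Ina encodes alpha-internexin, a filament protein of developing and central neurons. Its counts were low, with 32, 36 and 44 in IP with e5UTR, 51, 33 and 45 in IP shGpr151, 5, 3 and 7 in input with e5UTR and 4, 5 and 4 in input shGpr151. The IP pools stood at 17.8 CPM (exact Poisson 95% interval 14.7 to 21.5) with e5UTR and 22.4 (18.7 to 26.6) with shGpr151 alone, against 7.08 (3.96 to 11.7) and 6.11 (3.25 to 10.4) in the corresponding input pools. The log2 ratio was 1.61 ± 0.27 (adjusted p = 0.00014), for a gene that passed the filter only because it was high in IP. Ina overlaps Nt5c2, a cytosolic nucleotidase gene, which had 91 and 83 counts in the IP pools with e5UTR and with shGpr151 alone and 13 and 3 in the corresponding input pools. Like Ina, Nt5c2 could pass the filter only through its IP columns.

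Vim encodes vimentin. It had 1119, 1181 and 1100 counts in IP with e5UTR, 992, 973 and 932 in IP shGpr151, 131, 141 and 148 in input with e5UTR and 146, 132 and 145 in input shGpr151. IP columns ran from 484 to 564 CPM and input columns from 185 to 210, with no overlap. The log2 ratio was 1.40 ± 0.12 (adjusted p = 1.2e-07), higher than that of 85.3% of tested genes, and it was called in all 24 alternative settings.

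Among other cells that make vimentin, markers of Schwann cells, fibroblasts and macrophages were mostly lower in IP by TMM scaling. Of 13 tested Schwann cell genes 1 was higher and 10 were lower in IP, among them Prx, the periaxin of myelinating cells (tested only through its input counts), at −4.87 ± 0.38. Of 8 fibroblast genes 0 were higher and 6 were lower, with the matrix proteoglycan genes Dcn at −4.18 ± 0.19 and Lum at −3.22 ± 0.35. Macrophage genes had 1 higher and 5 lower of 7, satellite glia genes 1 higher and 2 lower of 5, and endothelial and mural genes 0 called of 2. By library total the counts became 3 higher and 8 lower for Schwann cells, 2 and 4 for fibroblasts, 3 and 2 for macrophages, 2 and 2 for satellite glia and 2 and 0 for endothelial and mural cells, beside 62.4% higher and 23.4% lower of all tested genes. Of the tested markers, 4 of 13 Schwann cell, 1 of 8 fibroblast and 3 of 7 macrophage genes passed the filter through input alone. Through IP alone passed 1 Schwann cell, 2 macrophage, 2 satellite glia and 1 endothelial and mural gene.

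Summed over all listed genes, Schwann cell markers stood at 544 CPM in IP with e5UTR and 570 in IP shGpr151, against 1674 in input with e5UTR and 1654 in input shGpr151. The fibroblast sums were 460 and 366 CPM in IP against 1712 and 1744 in input, in the same order of treatments, and the satellite glia sums 254 and 265 against 1120 and 1057. Macrophage sums were 76.6 and 69.5 CPM in IP against 178 and 181 in input, and endothelial and mural sums 80.5 and 65.7 against 85.0 and 75.2. All these sums are TMM-scaled, and the direction of the small endothelial and mural difference depends on scaling. The myelin gene Ncmap and the macrophage receptor Mrc1 had 0 counts in both IP pools. H2-Aa, an antigen-presenting class II gene, stood at −5.81 ± 0.45, the complement gene C1qa at −2.96 ± 0.23, and the satellite glia genes Apoe and Fabp7 at −3.14 ± 0.14 and −2.72 ± 0.16. Higher in IP were Glul, the glutamine synthetase of satellite glia (3.83-fold), Ngfr, the p75 neurotrophin receptor found on both Schwann cells and sensory neurons (3.49-fold), and Csf1r, the macrophage growth factor receptor (2.49-fold, a call that ended with size factors from the median of ratios, RLE). The part of these cells in the Vim ratio was not tested.

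Gfap was near the limit of detection in all libraries. It had 2, 4 and 0 counts in IP with e5UTR, 2, 1 and 2 in IP shGpr151, 0, 1 and 0 in input with e5UTR and 0, 2 and 0 in input shGpr151. The ratio of IP to input was 2.02 with e5UTR (exact 95% interval 0.246 to 93.1) and 0.922 with shGpr151 alone (0.151 to 9.68). No difference was detectable at this depth.

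**Figure D2:**
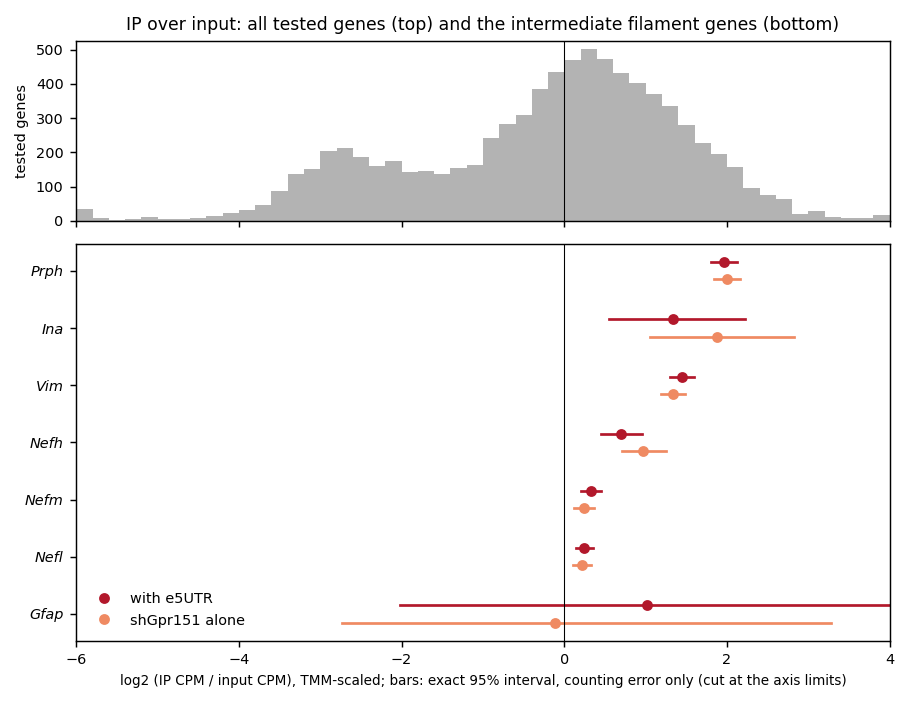
Top, number of tested genes by log2 ratio of IP to input, with values beyond the axis placed in the end bins. Bottom, the filament genes' log2 ratios in the 2 treatments with exact 95% intervals for counting error (Gfap cut at the axis); Prph lies near 2 and Nefl and Nefm just above 0.

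Both treatments had Prph at the top and Nefh, Nefm and Nefl at the lower end, in that order. With e5UTR the ratio of IP to input was 3.89 for Prph (exact binomial 95% interval 3.48 to 4.35), 2.73 for Vim (2.47 to 3.03), 2.52 for Ina (1.46 to 4.65), 1.62 for Nefh (1.36 to 1.94), 1.26 for Nefm (1.15 to 1.37) and 1.19 for Nefl (1.10 to 1.27). With shGpr151 alone it was 4.007 for Prph (3.59 to 4.48), 3.66 for Ina (2.07 to 7.06), 2.53 for Vim (2.28 to 2.80), 1.96 for Nefh (1.63 to 2.37), 1.18 for Nefm (1.08 to 1.29) and 1.16 for Nefl (1.08 to 1.25). The places of Ina and Vim, whose intervals overlap, were exchanged. Of these 12 ratios 6 were at least 2-fold, those of Prph, Ina and Vim, where 23.7% of tested genes reached 2-fold higher with e5UTR and 23.1% with shGpr151 alone. By library total all 12 were at least 2-fold, where 49.8% of tested genes reached 2-fold higher with e5UTR and 48.7% with shGpr151 alone. Each treatment has 1 pool per fraction, so these intervals cover counting error only.

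Comparing members with each other removes the scaling between libraries, because both counts come from the same pool. The ratio of Prph to Nefl counts lay between 1.13 and 1.33 in the 6 IP columns and between 0.326 and 0.411 in the 6 input columns. It was thus 3.28 times as high in IP as in input with e5UTR (exact conditional 95% interval 2.87 to 3.75) and 3.44 times with shGpr151 alone (3.01 to 3.94). Against Nefm, Prph was 3.09 times as high with e5UTR (2.68 to 3.57) and 3.39 times with shGpr151 alone (2.95 to 3.91). With 2 pools against 2, an exact permutation test of such a ratio cannot give a two-sided p under 0.333.

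Along the order of enrichment, in pairs chosen after seeing the data, some neighbours differed by more than counting error and others did not. Prph over Ina was 1.54 times as high in IP as in input with e5UTR (0.826 to 2.69) and 1.09 times with shGpr151 alone (0.562 to 1.96), so the pair could not be separated at this depth. Ina over Vim was likewise at 0.922 (0.530 to 1.72) with e5UTR and 1.45 (0.809 to 2.82) with shGpr151 alone. Vim exceeded Nefh in its ratio by 1.69 times with e5UTR (1.37 to 2.07) and 1.29 times with shGpr151 alone (1.04 to 1.60). Nefh exceeded Nefm by 1.29 times with e5UTR (1.06 to 1.57) and 1.66 times with shGpr151 alone (1.35 to 2.04).

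Nefm and Nefl kept a similar ratio to each other. The ratio of Nefm to Nefl counts was 0.689 to 0.795 in the IP columns and 0.643 to 0.826 in the input columns, so the fractions overlapped. IP over input, it stood at 1.06 with e5UTR (0.947 to 1.19) and 1.01 with shGpr151 alone (0.905 to 1.14).

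Set against Vim, the neuronal filaments as a sum were lower in IP than in input. The 5 genes summed to 3.14 counts per Vim count in IP with e5UTR and 3.40 in IP shGpr151, against 5.10 in input with e5UTR and 5.03 in input shGpr151. The ratio of IP to input was 0.616 with e5UTR (exact conditional 95% interval 0.549 to 0.689) and 0.676 with shGpr151 alone (0.603 to 0.757). The members were divided: relative to Vim, Nefl stood at 0.434 with e5UTR (0.382 to 0.492) and 0.461 with shGpr151 alone (0.405 to 0.523), while Prph stood at 1.42 (1.22 to 1.66) and 1.59 (1.36 to 1.85).

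The make-up of the neuronal filament counts therefore differed between fractions. The 5 genes held 0.235% of all counts in IP with e5UTR and 0.238% in IP shGpr151, against 0.0732% in input with e5UTR and 0.0720% in input shGpr151. Prph made up 37.2% of the sum in IP with e5UTR (exact binomial 95% interval 36.2 to 38.1) and 39.0% in IP shGpr151 (38.0 to 39.9), against 16.1% (14.6 to 17.7) and 16.6% (15.04 to 18.2) in the corresponding input pools. Nefl made up 31.9% and 29.5% in IP with e5UTR and IP shGpr151, against 45.3% and 43.3% in the corresponding input pools.

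Nefm made up 22.9% of the sum in both IP pools, against 30.6% in input with e5UTR and 33.1% in input shGpr151. Nefh made up 6.96% and 7.33% in IP with e5UTR and IP shGpr151 and 7.23% and 6.39% in the corresponding input pools, and within each treatment the intervals overlapped. These are shares of counts, not corrected for transcript length, so they compare fractions and not genes.

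**Figure D3:**
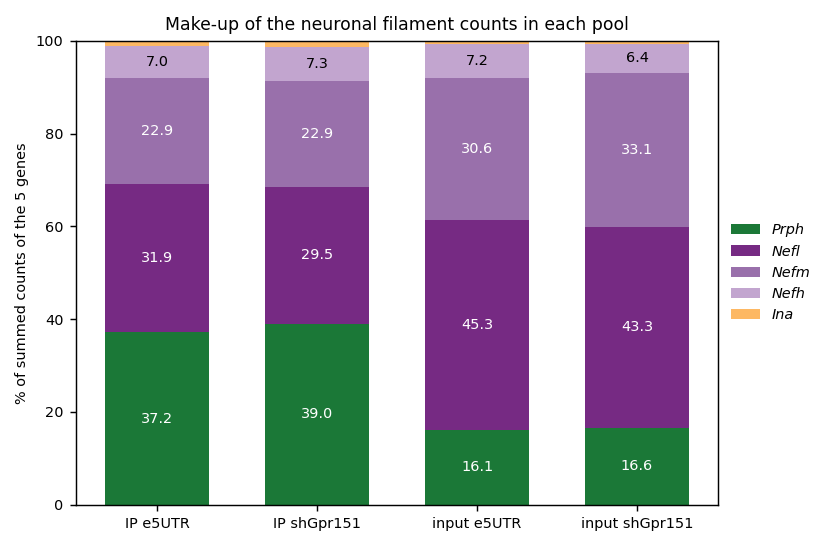
Share of each gene (percent of the summed counts of Prph, Nefl, Nefm, Nefh and Ina, from 0 to 100) in the 4 pools, IP left of input. Prph takes 37.2% and 39.0% of the sum in the IP pools and 16.1% and 16.6% in the input pools.

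The comparison of e5UTR with shGpr151 alone asked whether adding AAV-e5'UTR changed these mRNAs on neuronal ribosomes or in total RNA. No member reached 2-fold in either fraction, where 2.76% of tested genes did so in IP (0.804% upward) and 5.22% in input (2.98% upward). In IP, Nefl was at 1.08 times its level with shGpr151 alone (exact binomial 95% interval 1.03 to 1.13), Vim at 1.08 (1.03 to 1.13), Nefm at 0.999 (0.943 to 1.06), Prph at 0.952 (0.911 to 0.996), Nefh at 0.947 (0.854 to 1.05) and Ina at 0.798 (0.614 to 1.04). The IP columns of the 2 treatments did not overlap for Nefl, Vim and Prph, and for Nefl the input columns did not overlap either. The share of all tested genes with such a separation was not determined, so it sets no member apart. With RLE size factors, the log2 ratios of Nefl and Vim shrank to 0.03 each and that of Prph went to −0.15, so differences of this size depend on scaling.

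In input, Nefl stood at 1.06 (0.967 to 1.16), Vim at 0.998 (0.870 to 1.14), Nefm at 0.939 (0.843 to 1.05), Prph at 0.982 (0.844 to 1.14), Nefh at 1.15 (0.904 to 1.45) and Ina at 1.16 (0.515 to 2.65). All these intervals include 1. A test on the reads of the 12 columns (edgeR) compares these libraries and not the conditions. At adjusted p under 0.05 it called 0 members in IP and 0 in input, against 10.9% and 0.198% of all tested genes. At unadjusted p under 0.05 there were 2 of the 6 in IP and 0 in input, and the share of all tested genes at that threshold was not determined. The lowest adjusted p was 0.055, for Nefl in IP.

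The make-up of the neuronal filament counts in IP also differed slightly between e5UTR and shGpr151 alone. The odds of a neuronal filament count being Prph were 0.927 times those with shGpr151 alone (exact conditional 95% interval 0.876 to 0.981), and for Nefl they were 1.12 times (1.05 to 1.19), values that do not depend on scaling. In input the same odds were 0.964 (0.817 to 1.14) for Prph and 1.08 (0.959 to 1.23) for Nefl. For the other genes in IP the odds were 1.00 (0.938 to 1.07) for Nefm, 0.946 (0.849 to 1.05) for Nefh and 0.798 (0.613 to 1.04) for Ina. These intervals include 1. Shares of 1 sum are coupled, so those of Prph and Nefl are not separate observations. With 1 pool per group the differences have no replicate check.

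**Figure D4:**
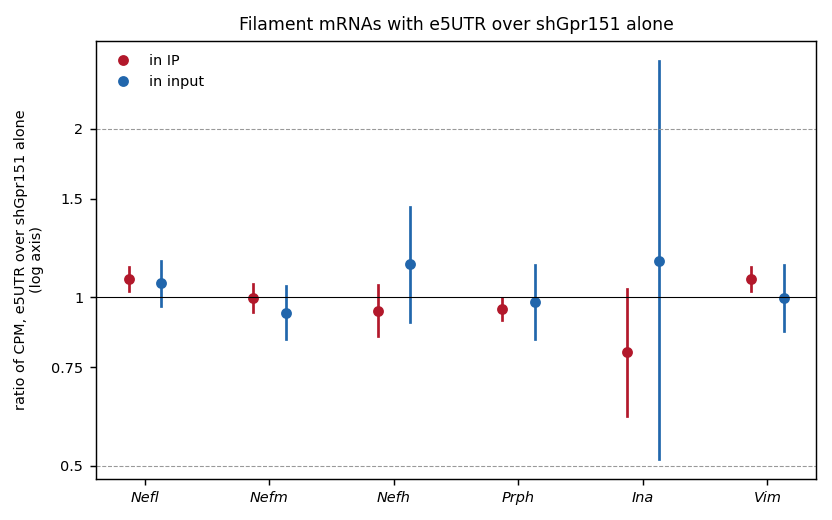
Ratio of CPM with e5UTR over shGpr151 alone (log axis) for the 6 tested genes in IP and in input, with exact 95% intervals for counting error and dashed lines at 2-fold. All 12 ratios lie between the lines.

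The ratio of IP to input itself did not differ detectably between the treatments. With e5UTR over shGpr151 alone it was 1.02 for Nefl (exact conditional 95% interval 0.917 to 1.13), 1.06 for Nefm (0.941 to 1.203), 1.08 for Vim (0.934 to 1.25), 0.970 for Prph (0.828 to 1.14), 0.827 for Nefh (0.638 to 1.07) and 0.688 for Ina (0.288 to 1.63). All 6 intervals include 1, and that of Ina is the widest.

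Other genes of the filament system were spread widely in IP against input, and lists are given by counts beside the 33.5% of all tested genes called higher and 36.2% called lower. Of 21 other cytoplasmic filament genes 12 were in the table and 5 were tested, of which 0 were higher and 4 lower (median log2 −1.57, against 0.06 over all tested genes). Krt7, a keratin of simple epithelia, stood at −2.80 ± 0.30 and Synm, the large filament protein synemin, at −1.64 ± 0.22. The other 2 called genes were Iffo1 at −1.57 ± 0.26 and the keratin Krt10 at −0.91 ± 0.27, the last at 0.03 by library total. Nes, the filament protein of progenitor cells, stood at −0.20 ± 0.24 and was not called. By library total 1 of the 5 was higher and 3 were lower, beside 62.4% and 23.4% of all tested genes.

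Among 5 tested genes for nuclear lamins and their processing, 2 were higher and 1 lower (median 0.73). Lmna, which encodes the A-type lamins of the nuclear envelope, was 4.06-fold higher, with 1143 and 1190 counts in the IP pools with e5UTR and with shGpr151 alone and 105 and 99 in the corresponding input pools. Icmt, the methyltransferase that finishes prenylated proteins, was 2.52-fold higher but was tested only through its IP counts, and Fnta, the alpha subunit of farnesyltransferase, stood at −1.04 ± 0.20.

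Cytolinkers tie filaments to actin, microtubules and membranes. Of 8 tested genes of this list, which also holds a heat shock protein gene, 3 were higher and 1 lower (median 0.22). The spectrin Sptan1 was 4.14-fold and the spectraplakin Macf1 2.17-fold higher. Cryab, a small heat shock protein that binds desmin and vimentin filaments, stood at −2.28 ± 0.13. Dst, whose protein dystonin links filaments in sensory axons, was at 0.10 ± 0.15 and was not called.

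Of 10 tested genes of filament turnover, 5 were higher and 2 lower (median 0.68). Capns1, the small regulatory calpain subunit, was 5.49-fold and Capn1, a calpain protease that cleaves neurofilaments (tested only through its IP counts), 4.30-fold higher, whereas Capn2, the other major calpain, stood at −1.87 ± 0.15 and Klhl24, a ubiquitin ligase adaptor known for keratin turnover in human skin, at −3.05 ± 0.14.

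Neurofilament tails are heavily phosphorylated, and of 21 tested kinase and phosphatase genes 13 were higher and 2 lower (median 0.77). Ppp2r1a and Ppp2r2a, subunits of protein phosphatase 2A, were 3.07-fold and 2.92-fold higher. Cdk5r2, the p39 activator of the neurofilament kinase CDK5, stood at −3.06 ± 0.15 and Mapk8, the stress kinase JNK1, at −1.09 ± 0.21. Cdk5 itself was at 0.38 ± 0.17 (adjusted p = 0.057).

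Proteins known to bind neurofilament mRNAs had 5 of 7 tested genes higher and 1 lower (median 0.75). Hnrnpk, whose protein binds the Nefm mRNA in Xenopus, was 2.07-fold higher. Elavl4, the neuronal RNA-stabilising protein HuD, stood at −0.64 ± 0.17 but at 0.30 by library total. By library total the medians of the lamin, cytolinker, turnover, kinase and mRNA-binding lists were 1.67, 1.16, 1.61, 1.70 and 1.69, with 4 of 5, 7 of 8, 8 of 10, 19 of 21 and 6 of 7 genes called higher and 0, 1, 2, 1 and 0 called lower, beside 62.4% and 23.4% of all tested genes. Through IP alone the filter admitted 3, 3, 3, 6 and 1 genes of these lists.

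**Figure D5:**
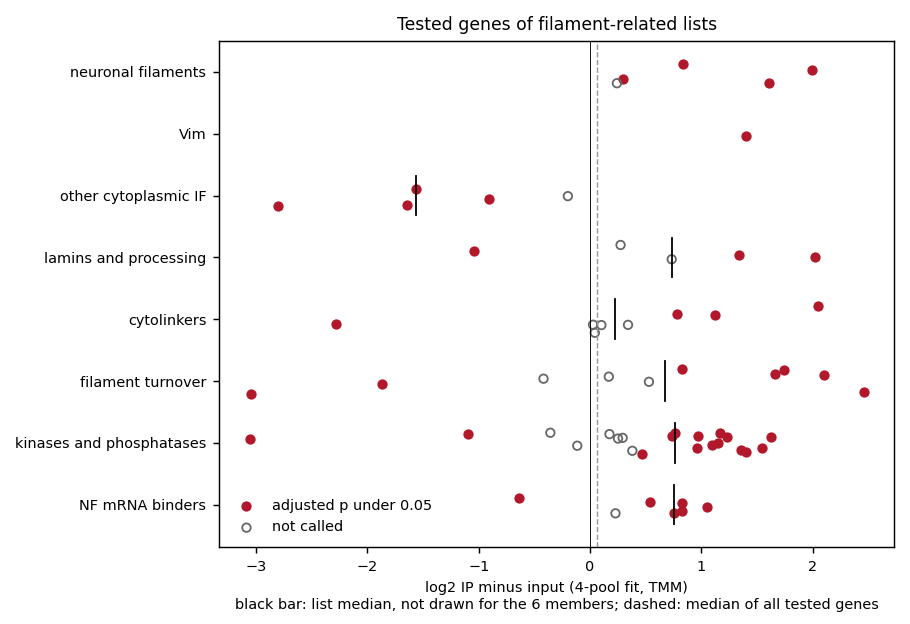
Log2 ratio of IP to input (horizontal axis, 4-pool fit) of the tested genes in each filament-related list, with called genes filled and the others open. The black bar is a list's median (not drawn for the 6 filament genes) and the dashed line the median of all tested genes, 0.06; the other cytoplasmic filaments lie left of it and Prph, Ina and Vim well to its right.

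The genes whose profile over the 4 pools was closest to a member were sought among 1823 genes with at least 100 counts in every pool, by the Euclidean distance between centred log2 CPM values. For Prph they were Uba1, the ubiquitin-activating enzyme (distance 0.056), Gabarapl1, an autophagy protein (0.134), and Tubb3, the neuronal beta-tubulin (0.161). For Vim they were the mitochondrial chaperone gene Hspa9 (0.060), the tubulin gene Tubb4b (0.071) and the calcium-binding protein gene S100a10 (0.094). Nefm lay closest to Hnrnpa2b1 (0.013), Rps4x (0.024) and Ndufa2 (0.029), and Nefl to Eif3h (0.030), Mrps18c (0.035) and 1110008P14Rik (0.043). For Nefh they were Hnrnpc (0.115), Map1b (0.116), which encodes an axonal microtubule-associated protein, and Atp5k (0.128). Ina, with fewer than 100 counts in the input pools, was not searched.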

How the data were processed

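The values are estimated counts that the authors deposited as whole numbers, in 12 columns. The submitters' processing notes list Salmon, minimap2 and the builds mm39 and GRCm39, with no version or role. Per the labels' protocols, libraries came from an Oxford Nanopore cDNA-PCR barcoding kit. No source used here gives the counting settings, strand use or annotation release. Symbols were found for 13191 of 14675 IDs (89.9%). Overlapping genes were read from a RefSeq table of another build, GRCm38.p6, so no coordinates are given.

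The 3 columns of a group were summed into a pool (chi-square comparison over genes with at least 30 counts). IP was compared with input by edgeR 4.0.16's quasi-likelihood test (R 4.3.3) on 2 against 2 pools that differ in treatment, with TMM scaling, filterByExpr over the 12 columns (minimum count 10, minimum total 15) and Benjamini-Hochberg adjustment over 8085 genes at 0.05. The biological coefficient of variation was 10.3%. SEs were derived from the log2 ratio and the F statistic. Other comparisons have 1 pool per group and exact 95% intervals (scipy 1.17.1 and R), which, like all intervals here, cover counting error only. PCR reads without molecular identifiers are not independent molecules. The fit was run on simulated data in which few genes changed, equally many up and down. The simulation did not cover the difference in scaling between IP and input, and its outcome is not reported here. Nothing in the labels says whether columns come from separate animals or cultures.

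Members and lists were chosen with earlier results of these data known. Named were all members, Gpr151, Avil and Rpl22, up to 2 highest and 2 lowest called genes of each list (those called higher and lower), and the 3 genes closest to each member; some that fall under this rule are not reported here. Nes, Iffo1, Krt10, Dst, Cdk5, Ncmap, Mrc1 and overlapping genes were named after their values were seen.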

Additional observations from a re-analysis of the deposited data

How the results depend on the processing

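Of 7 members, 4 to 6 were called higher in IP under the 24 alternatives to the 4-pool test, against 5. Prph, Vim and Nefh were called in each. Ina was called in the 23 that kept it, but the filter on low counts admitted it through its IP columns alone. Only the calls of Nefl and Nefm changed. The call of Nefm ended with RLE size factors (log2 0.27, adjusted p = 0.05012), DESeq2 (0.27, 0.16), treatment as a covariate (0.29, 0.066) and without either input pool (0.25 and 0.34). That of Nefl appeared by library total (1.18), without a filter (0.37), at a mean count of at least 30 (0.50), over the 12 columns without (0.28) and with the replicate block (0.28), and without either IP pool (0.28 and 0.29). Of the 12 ratios of IP to input within treatments, 6 were at least 2-fold, but 12 by library total, and 6 to 7 when a column was left out.

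Deviations of same-numbered columns had correlations from −0.20 to 0.21 over 18 pairs, 2 of them above 0.1. Columns of a group differed by little more than counting noise, so these correlations cannot show whether the numbers mark a pairing. With a replicate block over the 12 columns, 6 members were called in IP against input and 0 for e5UTR in either fraction. No called ratio changed direction. Among ratios of e5UTR to shGpr151 alone near 1, those of Nefm in IP and of Prph, Vim and Ina in input, and the treatment differences of Nefl and Prph, changed sign under some alternatives. With both treatments added together, log2 odds ratios of IP to input were taken again without each column. That of Prph within the neuronal sum moved between 1.63 and 1.67. For the neuronal sum over Vim it moved between −0.65 and −0.61. Summing without Nefh or Ina gave log2 odds ratios of 1.70 and 1.67 for Prph. By library total each list's calls are given with it, but for the erythroid genes, all 4 lower as before. Under RLE the macrophage list had 0 genes higher and 5 lower. Low counts limit Gfap and Ina most, and intervals cover counting error only.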
